A study of Mus musculus with 18 samples.

Results

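The genes described here are 10 mouse genes for chaperones and proteases of the mitochondrion: Hspa9, Hspd1, Hspe1, Trap1, Lonp1, Clpp, Clpx, Dnaja3, Afg3l2 and Yme1l1. They were chosen by name from a table of 37315 genes, and all 10 were among the 16213 genes with enough counts to be tested. Polyadenylated RNA of liver was sequenced from C57BL/6J mice of 2, 8 and 16 weeks of age. Each age had 3 asparaginase libraries, from mice injected intraperitoneally with the enzyme (Elspar) at 3 IU per g of body weight, and 3 PBS libraries, from mice given the same volume of phosphate buffered saline. Injections were daily, for 7 days at 2 and 16 weeks and for 8 days at 8 weeks, and livers were taken 7.5 h after the last one. Both sexes were used, and labelled sex was not balanced between treatments at any age. Males by label were PBS replicates 1 and 2 and asparaginase replicate 1 at 2 weeks. At 8 weeks they were PBS replicate 2 and asparaginase replicates 2 and 3. At 16 weeks they were PBS replicate 3 and asparaginase replicates 1 and 2. The other libraries were labelled female. Asparaginase, a leukaemia drug, breaks down circulating asparagine, and the design asks what this does to the liver at each age.

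Most mitochondrial proteins are made in the cytosol and cross the mitochondrial membranes unfolded. In the matrix they are received by Hspa9, a chaperone of the Hsp70 family that also pulls the chain inward, and its J-protein partner Dnaja3. Some are then passed to the folding chamber made of Hspd1 with its lid Hspe1. Damaged or surplus proteins are degraded by Lonp1, by the Clpx and Clpp complex, and by the membrane proteases Afg3l2 and Yme1l1. In Caenorhabditis elegans, unfolded protein in mitochondria raises the counterparts of Hspa9 and Hspd1 through the transcription factor ATFS-1. Atf5 has been proposed as its mammalian equivalent, and Atf5 is also known as a gene of the amino acid response.

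Levels are given as CPM, counts per 1000000 of a library size that was scaled by edgeR's TMM factors. Levels and separations of groups hold on that scale and can differ on plain library totals. The hepatocyte markers, 9 matched genes led by Alb, summed to between 65168 and 108630 CPM in all libraries, the lowest being 2-week asparaginase replicate 1. Library totals ran from 24690871 to 46949361 counts. In 3 libraries of 2 weeks (asparaginase replicate 3, PBS replicates 1 and 2) Xist and Y-linked transcripts were both present, so the sex term of the model rests at that age on labels that these mixed libraries contradict in part. At 8 weeks, asparaginase replicates 1 and 2 held 766 and 411 CPM of 12 squamous epithelial markers, with 9.55 CPM in replicate 3 and 1.29 to 6.79 CPM in the PBS libraries. Counts of members called, and those of the chaperone and stress response lists, are also given without these libraries where the counts move. The calls of the import, protease and translation lists were not rerun without them. The fits without either set of libraries also kept the sex term in adults only, so the model changed along with the libraries.

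Set on a common scale of CPM per kilobase of exon, the chaperonin and the Hsp70 chaperone were the most abundant members and the membrane proteases the least. Over the 18 libraries the median level was 136 for Hspd1, 115 for Hspa9, 55.2 for Hspe1 and 45.3 for Trap1, an Hsp90 family chaperone of the matrix. It was 26 for Lonp1, 22.2 for Dnaja3, 19.9 for Clpx and 18.3 for Clpp, then 8.73 for Yme1l1 and 6.53 for Afg3l2. Neighbours in this order overlapped over the libraries, apart from a gap between Hspa9, at no less than 82.6, and Hspe1, at no more than 77.7, and a gap between Clpp, at no less than 12.9, and Yme1l1, at no more than 10.5. Exon length here counts all annotated exons of a gene, 9874 bases for Afg3l2 and 8009 for Yme1l1, and the per-kilobase order depends on it. In CPM alone Clpp had the lowest median of the members, 22.4, against 64.5 for Afg3l2 and 69.9 for Yme1l1. Hspd1 and Hspe1, the 2 parts of one chamber, are transcribed away from each other and share 112 bases of exon. Trap1 shares 54 bases with Dnase1, and Dnaja3 shares 313 bases with Coro7 and Vasn, so reads in these stretches may be counted for either gene. The members that rose at 2 weeks lie at chr18:34937414-34954357 (Hspa9, ENSMUSG00000024359), chr17:56614297-56626887 (Lonp1, ENSMUSG00000041168) and chr16:4639989-4707695 (Dnaja3, ENSMUSG00000004069) in GRCm38.

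Members differed in how much they varied. Afg3l2 varied least, from 56.5 to 75.7 CPM over the 18 libraries, and Hspd1 ranged from 319 to 448 CPM. Lonp1 ranged from 91 to 263 CPM, Dnaja3 from 62.1 to 179 CPM and Hspa9 from 356 to 955 CPM. For 6 of the 10 members, these 3 with Hspd1, Hspe1 and Afg3l2, the highest library was the same one, 2-week asparaginase replicate 1. Clpx varied most, from 38.4 to 221 CPM.

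**Figure D1:**
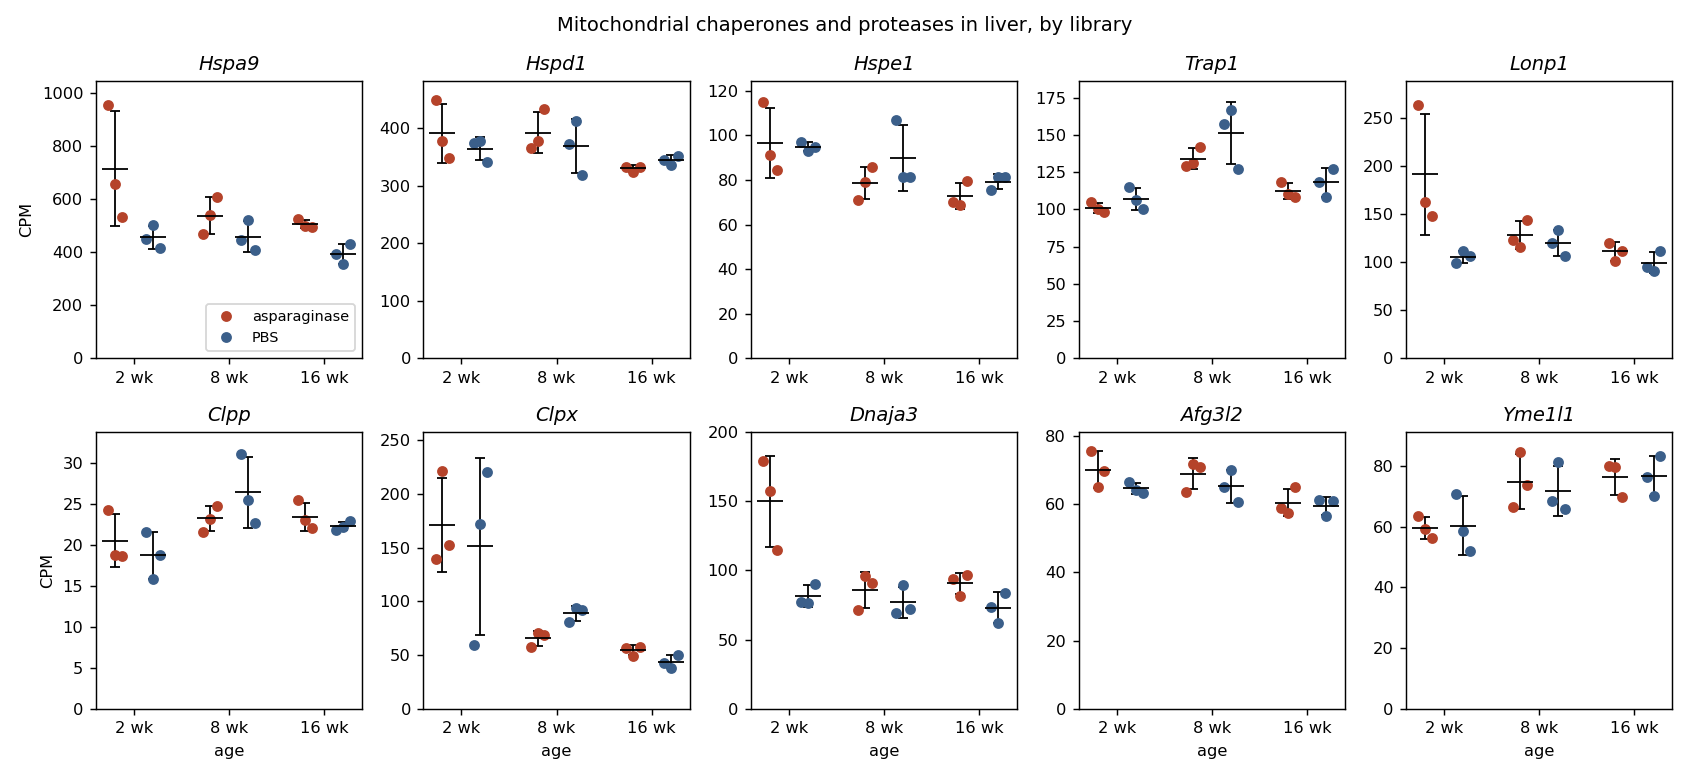
TMM-scaled CPM of the 10 members in each library, by age; points are libraries, horizontal lines group means and bars 1 SD (n = 3), with asparaginase left of PBS. Hspa9, Lonp1 and Dnaja3 lie above all PBS libraries in the 3 asparaginase libraries of 2 weeks, while Hspd1 stays between 319 and 448 CPM throughout.

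At 2 weeks the matrix Hsp70 chaperone, its J-protein and the Lon protease were higher under asparaginase, by 1.7 to 1.92 times, and the other 7 members did not pass the test. Hspa9 measured 955, 656 and 531 CPM in asparaginase replicates 1 to 3, against 450, 500 and 415 CPM in PBS replicates 1 to 3. All asparaginase libraries were higher than all PBS libraries, and the log2 fold change was 0.76 (SE 0.13, adjusted p = 0.0319 by edgeR's quasi-likelihood test with Benjamini-Hochberg adjustment). Lonp1, an ATP-dependent protease that clears damaged matrix proteins, measured 263, 162 and 148 CPM under asparaginase, against 98.8, 111 and 106 CPM under PBS. Its libraries again separated completely, with a log2 fold change of 0.94 (SE 0.16, edgeR adjusted p = 0.0265). Dnaja3 measured 179, 157 and 115 CPM under asparaginase, against 77.4, 76.7 and 90.3 CPM under PBS, also without overlap. Its log2 fold change was 0.90 (SE 0.16, edgeR adjusted p = 0.0319).

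Thus 3 of 10 members rose and 0 fell at 2 weeks, where 0.432% of all genes tested were called. The groups separated upward for these same 3 members, against 8.09% of all genes. The median log2 fold change of the 10 members was 0.16, against -0.01 over all genes tested. In bulk liver, a change in the number of cells of a type and a change of RNA per cell cannot be told apart. Pancreatic acinar markers (12 genes, none at 0 in either group) came to 1036, 1141 and 404 CPM under asparaginase, against 104, 98.1 and 15.5 CPM under PBS. Proliferation markers (12 genes) came to 55.1, 91.7 and 78.7 CPM under asparaginase, against 154, 130 and 156 CPM under PBS. Hepatocyte markers came to 65168, 100058 and 85177 CPM under asparaginase, against 100567, 99348 and 107268 CPM under PBS, replicate 1 of asparaginase being lowest. The part of these transcripts in the 3 rises was not tested.

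The calls at 2 weeks depended on the sex term and on single libraries. With no sex term the log2 fold changes were 0.65 for Hspa9, 0.86 for Lonp1 and 0.88 for Dnaja3, and edgeR called 0 of 10 members. Without 2-week asparaginase replicate 1, the highest library for each, they were 0.51, 0.54 and 0.58 and none passed. The count was also 0 without asparaginase replicate 2 or PBS replicate 1 or 2 of 2 weeks, PBS replicate 1 of 16 weeks or the 2 squamous libraries, and 1 without asparaginase replicate 2 of 8 weeks or replicate 1 of 16 weeks. Leaving out PBS replicate 1 of 16 weeks left the folds as large, at 0.76, 0.94 and 0.90. The fits without the squamous or the mixed libraries also kept the sex term in adults only. That sex term alone, with all libraries, gave 0.65 for Hspa9 and 0.86 for Lonp1. Without the squamous libraries the folds were 0.65, 0.86 and 0.88. Without the 3 mixed libraries they were 0.94, 0.98 and 0.88, again with 0 members called, PBS at this age then being 1 library whose spread is taken from the others.

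Neither subunit of the chaperonin passed the test. Hspd1 measured 448, 377 and 348 CPM in 2-week asparaginase livers, against 374, 377 and 341 CPM in their PBS controls, and the groups overlapped. Its log2 fold change was 0.17 (SE 0.11), an interval of 2 SE from -0.04 to 0.38. Hspe1 measured 115, 91.1 and 84.6 CPM under asparaginase, against 97.2, 92.9 and 95 CPM under PBS. The difference on the log2 scale was 0.08 (interval -0.19 to 0.35). Trap1 (-0.05), Clpp (0.19), Afg3l2 (0.15) and Yme1l1 (0.06) also overlapped, and none had an adjusted p under 0.05. Clpx, the unfolding ring that feeds Clpp, varied widely within both groups: it measured 139, 221 and 152 CPM under asparaginase, against 59.5, 172 and 220 CPM under PBS, with an interval from -0.58 to 0.60.

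**Figure D2:**
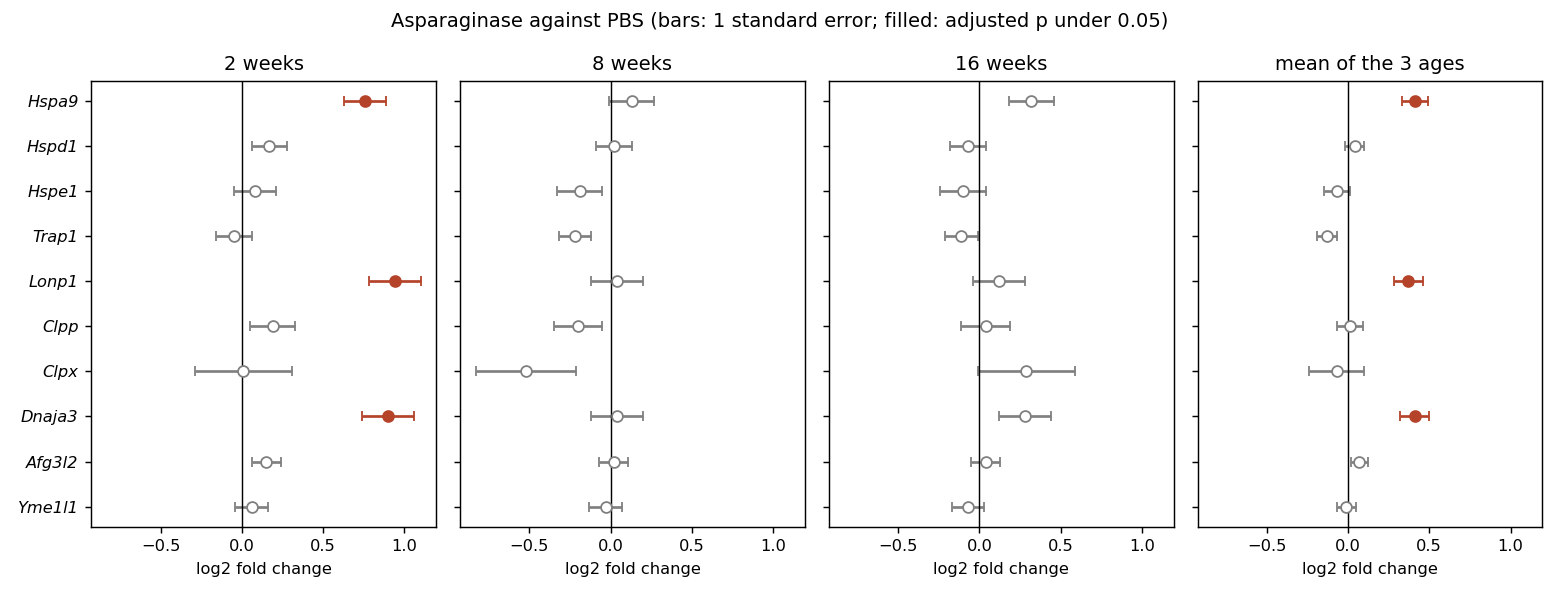
Log2 fold change of asparaginase against PBS for each member at each age and as the mean of the 3 ages; bars are 1 SE of the edgeR fit, and filled points have an adjusted p under 0.05. Hspa9, Lonp1 and Dnaja3 are filled at 2 weeks and in the mean, and 0 members are filled at 8 or 16 weeks.

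To show what lies upstream of members that rose and members that did not pass the test, promoter windows of 250 bases before to 50 after the transcript start are printed from RefSeq (GRCm38.p6), 5′ to 3′ on the gene's strand. Windows were at hand for 8 of the 10 members, not for Hspa9 or Afg3l2. Windows were searched on both strands for 3 motifs: TGATGNAA, the composite site of ATF4 and C/EBP factors, TGACGT, the core of the cAMP response element, and GAANNTTC, a pair of heat shock element units in the order GAA then TTC. Pairs in the other order, TTC then GAA, were not searched, so a window without a match may still hold such a pair. Capitals mark a match. Lonp1 and Dnaja3 are shown because they rose at 2 weeks, Trap1 and Hspe1 because they did not pass the test, and Asns, the asparagine synthetase gene, as a known target of ATF4.
Lonp1 (chr17:56626854-56627153, minus strand): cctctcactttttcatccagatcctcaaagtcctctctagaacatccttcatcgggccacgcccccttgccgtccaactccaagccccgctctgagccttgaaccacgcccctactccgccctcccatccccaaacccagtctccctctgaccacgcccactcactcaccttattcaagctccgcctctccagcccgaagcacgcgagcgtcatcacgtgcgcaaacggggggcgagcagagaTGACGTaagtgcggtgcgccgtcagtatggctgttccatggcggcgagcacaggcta
Dnaja3 (chr16:4683820-4684119, plus strand): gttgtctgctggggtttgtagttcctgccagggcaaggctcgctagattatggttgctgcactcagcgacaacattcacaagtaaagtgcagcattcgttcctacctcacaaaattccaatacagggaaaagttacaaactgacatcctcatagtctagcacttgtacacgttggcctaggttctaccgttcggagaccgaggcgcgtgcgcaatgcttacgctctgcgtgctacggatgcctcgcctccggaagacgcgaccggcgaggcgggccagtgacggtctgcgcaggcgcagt
Trap1 (chr16:4077761-4078060, minus strand): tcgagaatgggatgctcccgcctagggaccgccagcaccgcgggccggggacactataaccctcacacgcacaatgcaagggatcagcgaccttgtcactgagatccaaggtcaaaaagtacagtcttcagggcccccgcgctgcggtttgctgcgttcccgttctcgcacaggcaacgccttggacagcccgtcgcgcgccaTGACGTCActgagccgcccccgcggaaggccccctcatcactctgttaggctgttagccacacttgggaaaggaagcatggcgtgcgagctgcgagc
Hspe1 (chr1:55087898-55088197, plus strand): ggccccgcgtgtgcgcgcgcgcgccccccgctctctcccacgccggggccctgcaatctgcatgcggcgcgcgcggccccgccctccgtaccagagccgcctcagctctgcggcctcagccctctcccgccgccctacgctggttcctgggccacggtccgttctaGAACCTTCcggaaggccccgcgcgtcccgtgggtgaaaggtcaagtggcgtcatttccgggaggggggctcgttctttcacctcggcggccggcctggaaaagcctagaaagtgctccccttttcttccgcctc
Asns (chr6:7693160-7693459, minus strand): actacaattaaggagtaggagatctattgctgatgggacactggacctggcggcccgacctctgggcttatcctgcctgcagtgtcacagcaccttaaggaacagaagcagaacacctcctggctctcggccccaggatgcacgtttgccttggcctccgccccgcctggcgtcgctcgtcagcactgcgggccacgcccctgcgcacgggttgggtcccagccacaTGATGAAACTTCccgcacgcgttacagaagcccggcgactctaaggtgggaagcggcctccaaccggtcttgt

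The window of Lonp1 holds TGACGT once, and that of Dnaja3 holds none of the 3 motifs. The window of Trap1 holds 2 overlapping matches of TGACGT, one on each strand. Hspe1 holds GAANNTTC once, in the stretch it shares with a window of Hspd1: the starts of these windows lie 216 bases apart and the windows have 285 bases in common. That start of Hspd1 lies 311 bases inside the gene as GENCODE M21 draws it. Another window of Hspd1, at its outermost start, holds none of the 3 motifs. No window of a member holds TGATGNAA, while that of Asns holds it, overlapping a match of GAANNTTC. The windows of Clpp, Clpx, Yme1l1 and Atf5 hold none of the 3. Of 32851 windows of the same length, 3.97% hold TGATGNAA, 7.51% hold TGACGT and 7.86% hold GAANNTTC. A match is a description of letters and not a site in use. The RefSeq start of Dnaja3 used here lies 44081 bases inside the gene as GENCODE M21 draws it, which has a start farther upstream, so its window is not that of the outermost start.

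At 8 weeks Hspa9 measured 467, 539 and 606 CPM under asparaginase, against 445, 520 and 407 CPM under PBS, with overlap and a log2 fold change of 0.13 (SE 0.14). Lonp1 measured 123, 116 and 144 CPM under asparaginase, against 120, 133 and 106 CPM under PBS. Lonp1 and Dnaja3, both overlapping, each had a log2 fold change of 0.04 (SE 0.16). Trap1 read lowest of the chaperones, at -0.22 (SE 0.10), with 129, 131 and 142 CPM under asparaginase, against 157, 167 and 127 CPM under PBS. By edgeR 0 of 10 members were called at this age, 0 had an unadjusted p under 0.05, and DESeq2 and limma-voom called 0. Over all genes 0.364% were called. Clpx alone separated, with 57.2, 70.7 and 68.2 CPM in the asparaginase libraries, all below the 80.9, 93.8 and 92.2 CPM of the PBS libraries. Its log2 fold change was -0.52 (SE 0.31, edgeR adjusted p = 0.392), and a downward separation occurred in 8.57% of all genes. Erythroid markers (10 genes) came to 263, 325 and 296 CPM under asparaginase, against 572, 568 and 536 CPM under PBS, and Kupffer cell and macrophage markers (12 genes) to 335, 280 and 272 CPM under asparaginase, against 692, 361 and 557 CPM under PBS. Their part was not tested. Without the squamous libraries, which leaves 1 asparaginase library, the log2 fold change was 0.21 for Hspa9, 0.11 for Lonp1, 0.02 for Dnaja3 and -0.46 for Clpx, and 0 members were called.

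At 16 weeks Hspa9 stood at 525, 498 and 495 CPM with asparaginase, above the 394, 356 and 431 CPM of all PBS libraries. Its log2 fold change was 0.32 (SE 0.14) and missed the threshold (edgeR adjusted p = 0.401). On plain library totals the groups overlapped. Asparaginase replicate 2, with 16708 of 46949361 counts, had a lower share than PBS replicate 1, with 13153 of 35862867. Hspd1 had 333, 323 and 333 CPM in the asparaginase libraries, all below the 345, 336 and 352 CPM of the PBS libraries (log2 fold change -0.07, SE 0.11). Dnaja3 measured 93.5, 81.6 and 96.3 CPM under asparaginase, against 73.5, 62.1 and 83.8 CPM under PBS, where 1 library of each group crossed over. Lonp1 measured 120, 101 and 111 CPM under asparaginase, against 94.7, 91 and 111 CPM under PBS, and overlapped (log2 fold change 0.12, SE 0.16). The other 6 members overlapped as well, with log2 fold changes from -0.11 (Trap1) to 0.29 (Clpx). By edgeR 0 of 10 members were called, 1 had an unadjusted p under 0.05 (Hspa9), DESeq2 and limma-voom called 0, and 0.234% of all genes were called. Upward separation (1 member, Hspa9) occurred in 10.1% of all genes and downward separation (1 member, Hspd1) in 9.63%. The acinar sum was 230, 12.8 and 2739 CPM in the asparaginase libraries and 12.3, 350 and 387 CPM in the PBS libraries, with overlap. Skeletal muscle markers (10 genes) came to 4.5, 17.2 and 2.41 CPM under asparaginase, against 116, 223 and 39.4 CPM under PBS. Hepatocyte markers came to 69383, 69891 and 87834 CPM under asparaginase, against 105048, 91252 and 88516 CPM under PBS, and so were lower in all asparaginase libraries. The part of these markers was not tested.

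Averaged over the 3 ages, the same 3 members rose. The mean log2 fold change was 0.41 for Hspa9 (SE 0.08, edgeR adjusted p = 0.0133), 0.41 for Dnaja3 (SE 0.09, adjusted p = 0.0263) and 0.37 for Lonp1 (SE 0.09, adjusted p = 0.0405). That is 3 of 10 members, where 5.41% of all genes were called, and the members' median was 0.03 against 0.00 for all genes. The mean for Hspd1 was 0.04, with an interval of 2 SE from -0.08 to 0.17, and for Hspe1 -0.07, from -0.23 to 0.09. Trap1 had the lowest mean, -0.13 (SE 0.06, edgeR adjusted p = 0.243). For all 3 the 2-week effect was the largest of the ages. Without 2-week asparaginase replicate 1 the mean of Hspa9 was 0.33, that of Dnaja3 0.31 and that of Lonp1 0.25, and 0 members were called. With no sex term Hspa9 (0.42) and Dnaja3 (0.45) were called and Lonp1 (0.37) was not. All 3 calls of the mean also ended on leaving out asparaginase replicate 1 of 8 weeks, asparaginase replicate 3 of 16 weeks, both squamous libraries or the 3 mixed libraries. Leaving out PBS replicate 2 of 8 weeks or asparaginase replicate 1 of 16 weeks left 1 call. Over the 18 fits that each left out 1 library, the call of the mean held in 15 for Hspa9, 13 for Dnaja3 and 8 for Lonp1. The fits without the squamous or the mixed libraries also kept the sex term in adults only. That sex term alone, with all libraries, left 1 call.

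Whether the effect differed between ages was tested directly. From 2 to 8 weeks the effect changed by -0.63 (SE 0.19) for Hspa9, -0.90 (SE 0.23) for Lonp1 and -0.86 (SE 0.23) for Dnaja3 on the log2 scale. From 2 to 16 weeks it changed by -0.44, -0.82 and -0.62 for these genes in turn. Without 2-week asparaginase replicate 1 the changes to 8 weeks shrank to -0.35, -0.48 and -0.52, and those to 16 weeks to -0.18, -0.41 and -0.29. In the joint test over the ages edgeR called 0 members and 0% of all genes, 3 members (Hspa9, Lonp1 and Dnaja3) had an unadjusted p under 0.05, DESeq2 called 1, Lonp1, and limma-voom called 0. The larger estimates at 2 weeks than later for these 3 genes did not pass the edgeR test after adjustment.

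A ratio of counts within a library is free of scaling between libraries, and the ratio to Hspd1 was examined for the 3 risers, a choice made after the values were seen. The log2 ratio of Hspa9 to Hspd1 was 1.09, 0.80 and 0.61 in the asparaginase libraries of 2 weeks and 0.27, 0.40 and 0.28 in the PBS libraries. At 8 weeks it was 0.35, 0.51 and 0.49 with asparaginase and 0.25, 0.33 and 0.35 with PBS, the closest libraries differing by less than the last digit shown. At 16 weeks it was 0.66, 0.63 and 0.57 with asparaginase and 0.19, 0.08 and 0.29 with PBS. So the ratio was higher in every asparaginase library than in every PBS library of its age at all 3 ages. How many of all genes separate likewise in their ratio to Hspd1 was not computed. At 16 weeks Hspd1 itself was lower in all asparaginase libraries, which raises any ratio to it.

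The mean difference of this ratio over the ages was 0.36 on the log2 scale. For Dnaja3 over Hspd1 the mean difference was 0.40, with complete separation at 2 and 16 weeks. For Lonp1 over Hspd1 it was 0.31, with separation at 2 weeks only, where the difference was 0.72, then -0.00 at 8 weeks and 0.23 at 16 weeks. Leaving out each library in turn kept the 3 means between 0.32 and 0.40 for Hspa9, 0.37 and 0.45 for Dnaja3, and 0.26 and 0.34 for Lonp1. Without the 3 mixed libraries the means were 0.41 for Hspa9, 0.36 for Dnaja3 and 0.31 for Lonp1, and without the squamous libraries 0.37, 0.39 and 0.32. These ratios are a description with no test, since the 3 genes were picked for having risen, and Hspd1 for not having passed the test, in the same libraries. Their separations have no share over all genes to be set against.

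**Figure D3:**
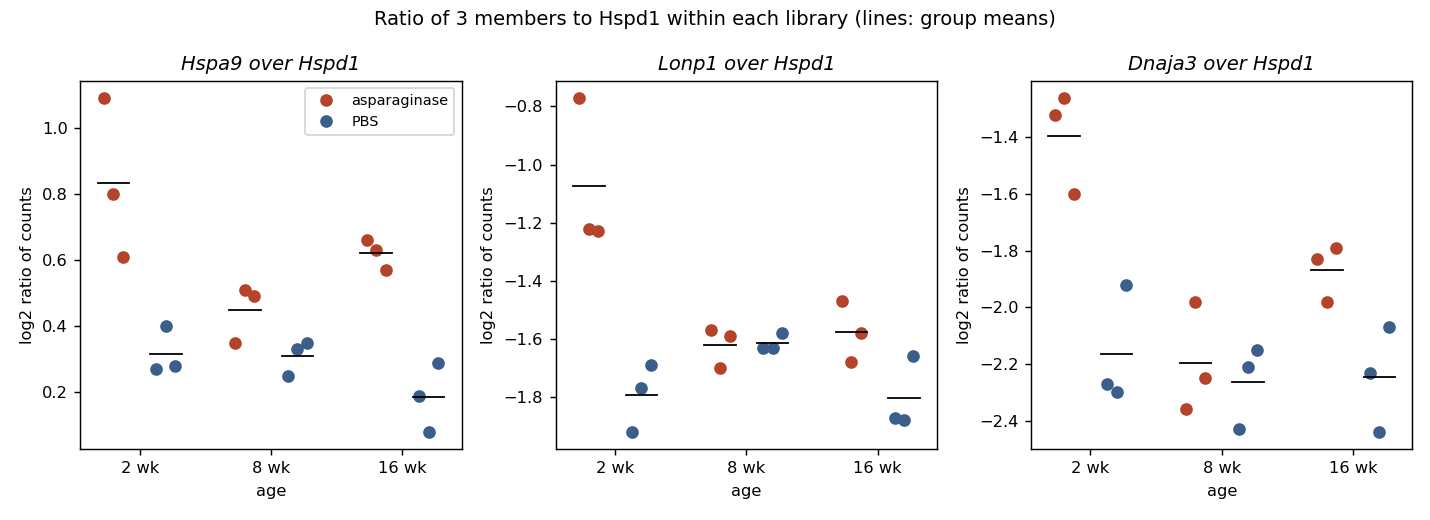
Log2 ratio of the counts of Hspa9, Lonp1 and Dnaja3 to those of Hspd1 in each library, by age; points are libraries and lines group means, with asparaginase left of PBS. The Hspa9 ratio lies above the PBS libraries at all 3 ages, by 0.52 at 2 weeks, 0.14 at 8 weeks and 0.43 at 16 weeks on average.

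Atf5 itself measured 751, 629 and 404 CPM in 2-week asparaginase livers, against 113, 132 and 177 CPM in their PBS controls. At 8 weeks it measured 123, 241 and 306 CPM under asparaginase, against 194, 143 and 184 CPM under PBS. At 16 weeks it measured 344, 219 and 441 CPM under asparaginase, against 106, 93 and 74.6 CPM under PBS. Atf5 thus separated the treatments at 2 and 16 weeks and not at 8 weeks. The overlap at 8 weeks came from asparaginase replicate 1 (123 CPM), a library with squamous transcripts. Replicate 2, which also held them, and replicate 3 lay above all PBS libraries of that age. No Atf5 effect without the squamous libraries is given. Its exons overlap those of Nup62 and Il4i1 on the other strand, and the use of strand in the counting is unknown.

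Atf5 rose by 2.08 on the log2 scale at 2 weeks (SE 0.32, edgeR adjusted p = 0.017) and by 2.03 at 16 weeks (SE 0.33, adjusted p = 0.0258), and its difference at 8 weeks was 0.16 (SE 0.37, adjusted p = 0.847). The Lonp1 effect was 0.94 at 2 weeks and 0.12 at 16 weeks, that of Dnaja3 0.90 and 0.28, and that of Hspa9 0.76 and 0.32. The change from 2 to 16 weeks was -0.82 (SE 0.23) for Lonp1, or -0.41 without 2-week asparaginase replicate 1, and -0.05 (SE 0.45) for Atf5. These changes were not tested against each other.

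Because Atf5 separated the treatments at 2 and 16 weeks, no correlation is given over pooled groups or within those ages. With values centred on the group means, the relation to Atf5 over the 18 libraries was strongest for Hspe1, with Pearson's r = 0.61 and Spearman's rho = 0.61 (permutation p = 0.0188 and 0.0204). After adjustment over the 40 relations computed the p was 0.188 for Pearson's r and 0.272 for Spearman's rho, and without the 2 libraries farthest from the median of Atf5 r was 0.57. For Dnaja3 r was 0.56 (rho 0.55, permutation p = 0.0548 and 0.0504, adjusted 0.438), and 0.42 without the 2 farthest libraries. Hspa9 had r = 0.39 and Lonp1 r = 0.37, with permutation p = 0.23 and 0.243. Within 8 weeks, where the treatments mix, r was 0.55 for Hspa9 (rho 0.54, exact permutation p = 0.258 and 0.297, n = 6) and fell to 0.09 without the 2 farthest libraries. Of the 10 members 0 had a relation to Atf5 with an adjusted permutation p under 0.05, and 1 had an unadjusted p under 0.05 in the centred values. These r depend on scaling: on plain library totals, where transcripts of the major urinary proteins (Mup) take 5.39 to 47.91% of adult counts, r with Atf5 was positive for all 10 members, from 0.51 to 0.83, Trap1 and Yme1l1 included, and 0 passed after adjustment.

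**Figure D4:**
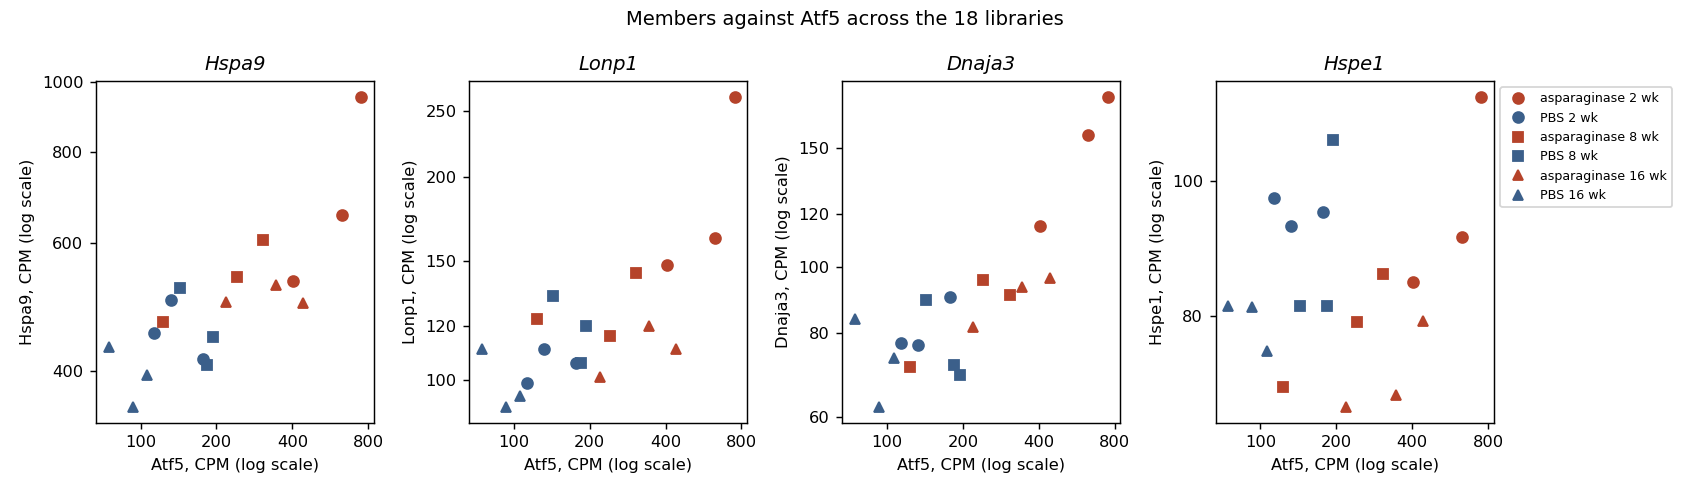
Level of Hspa9, Lonp1, Dnaja3 and Hspe1 against Atf5 in the 18 libraries, both in CPM on log axes; colour gives the treatment and shape the age. The 2-week asparaginase libraries lie at the upper right for Hspa9, Lonp1 and Dnaja3, and the 16-week asparaginase libraries reach 441 CPM of Atf5 with no more than 120 CPM of Lonp1.

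Within groups several members varied together. Centred on the group means, Hspa9 followed Hspd1 (r = 0.90) and Lonp1 (r = 0.90) over the 18 libraries, and Hspd1 followed Lonp1 (r = 0.82) and Trap1 (r = 0.78). Hspd1 and Hspe1, transcribed from neighbouring starts, had r = 0.56. Clpx stood apart, with r of -0.01 to Hspa9 and -0.47 to Clpp, its partner. These values are descriptions of 18 libraries that share depth and scaling. Single groups weigh heavily on them. Clpx spread most in 2-week PBS (59.5, 172 and 220 CPM). Hspa9 (955, 656 and 531 CPM) and Lonp1 (263, 162 and 148 CPM) spread most in 2-week asparaginase. No r without replicate 1 of either group is given. Among 7157 genes with a mean of at least 10 CPM, those most like Hspa9 were Ghitm, an inner membrane protein (0.92), Eif3c, a translation initiation subunit (0.92), and Lonp1 (0.90). Hspe1 was most like Mdh2, matrix malate dehydrogenase (0.91), Eif3f (0.90) and Chchd10 (0.89). Dnaja3 was most like Polr3e (0.89), Acbd3 (0.88) and Eprs (0.88). Clpx was most like Cdkn1a, a cell cycle inhibitor (0.92), Arl4a (0.90) and Afp, the fetal albumin-like protein (0.90).

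In PBS mice, Trap1, Clpp, Yme1l1 and Clpx changed with age on TMM-scaled values, and the rises depend on that scaling. Mup transcripts took 0.05 to 0.58% of counts in the libraries of 2 weeks and 5.39 to 47.91% in those of adults. Trap1 stood at 115, 106 and 100 CPM at 2 weeks, at 157, 167 and 127 CPM at 8 weeks and at 118, 108 and 127 CPM at 16 weeks in the PBS libraries. Unscaled, it had 3885, 3917 and 3614 counts of library totals 26507374, 27263553 and 26928605 at 2 weeks. At 8 weeks it had 4925, 5054 and 5090 counts of 36173744, 44371476 and 39223007. Its share of plain library totals was thus no higher at 8 weeks on average, and no age test used those totals. In the TMM-scaled fit Trap1 rose from 2 to 8 weeks by 0.53 (SE 0.10, edgeR adjusted p = 0.00212), and Clpp, the proteolytic chamber, by 0.54 (SE 0.14, adjusted p = 0.0128). Unscaled, Clpp had 725, 583 and 673 counts at 2 weeks and 977, 769 and 909 at 8 weeks. Its share of the same library totals also was no higher at 8 weeks on average. Without the 3 mixed libraries Clpp was at 0.49 and did not pass. Yme1l1, the protease facing the intermembrane space, rose by 0.33 at 8 weeks (SE 0.10, edgeR adjusted p = 0.0208) and by 0.42 at 16 weeks (SE 0.10, adjusted p = 0.00718), both relative to 2 weeks. Its libraries overlapped in both, with 70.9, 58.6 and 51.9 CPM at 2 weeks, 68.5, 81.2 and 65.9 CPM at 8 weeks and 76.4, 70.1 and 83.5 CPM at 16 weeks. Unscaled, it had 2393, 2160 and 1869 counts at 2 weeks and 2149, 2453 and 2640 at 8 weeks. As a share of the same library totals it was lower in every PBS library of 8 weeks. The calls of Yme1l1 were lost without PBS replicate 3 of 2 weeks (0.23 and 0.33) and with no sex term (0.25 and 0.34). That of 8 weeks was also lost without PBS replicate 2 of 2 or of 8 weeks (0.26 and 0.33), without the squamous libraries (0.29), with no filter on low counts (0.33) and with the sex term in adults only (0.29), and that of 16 weeks without PBS replicate 3 of 16 weeks (0.42).

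Clpx fell between 2 and 16 weeks. In the PBS libraries it stood at 59.5, 172 and 220 CPM at 2 weeks, at 80.9, 93.8 and 92.2 CPM at 8 weeks and at 42.7, 38.4 and 50.1 CPM at 16 weeks. At 16 weeks all libraries lay below all those of 2 weeks, with a log2 fold change of -1.82 (SE 0.30, edgeR adjusted p = 0.00084). Without PBS replicate 2 of 2 weeks it was -1.44 and without the 3 mixed libraries -2.32, and it passed in both. From 2 to 8 weeks the change was -0.77 (SE 0.30, edgeR adjusted p = 0.0632), and without PBS replicate 1 of 2 weeks, the lowest of its group, it was -1.11 and passed the test, as it did without the 3 mixed libraries (-1.29) and by DESeq2 (-0.78) or with no filter (-0.77). Without PBS replicate 2 of 2 weeks it was -0.41 and did not pass. With all libraries, Hspa9, Hspd1, Lonp1 and Dnaja3 passed the test in no comparison of ages in PBS mice by edgeR. Without PBS replicate 3 of 2 weeks Lonp1 was 0.57 higher at 8 than at 2 weeks and passed, against 0.26 with all libraries.

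Markers of other cells moved with age as well. In the PBS libraries proliferation markers came to 154, 130 and 156 CPM at 2 weeks, 18.3, 9.47 and 38.7 CPM at 8 weeks and 13.3, 12.4 and 6.41 CPM at 16 weeks. Erythroid markers came to 1670, 1413 and 789 CPM at 2 weeks, 572, 568 and 536 CPM at 8 weeks and 460, 762 and 422 CPM at 16 weeks. Stellate and endothelial markers (10 genes) came to 566, 885 and 836 CPM, 394, 292 and 451 CPM, and 386, 395 and 350 CPM at these ages, and the part of all these markers was not tested. Counts of members called across age stayed near those of all genes. From 2 to 8 weeks 3 of 10 rose, where 31.7% of all genes were called, and 2 separated upward (Trap1 and Clpp), against 16.4%. From 2 to 16 weeks 1 rose and 1 fell, where 27.8% were called. Clpp separated upward, against 19.5% of all genes, and Hspe1, Clpx and Afg3l2 downward, against 20.2%. From 8 to 16 weeks edgeR called 0 members, 2 had an unadjusted p under 0.05, DESeq2 called Trap1 and Clpx, limma-voom called 0, and 0.413% of all genes were called. Hspe1 and Clpx separated downward there, against 8.18%.

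Lists of related genes set the members in context, by the mean effect over the ages. Of 17 other mitochondrial chaperones and cochaperones, edgeR called 0, 4 had an unadjusted p under 0.05, DESeq2 called 1 and limma-voom 0, and the median was 0.01. Grpel1 and Grpel2, which release nucleotide from Hspa9, had log2 fold changes of 0.01 (SE 0.06) and 0.36 (SE 0.11, edgeR adjusted p = 0.085), values given because of their partner. Of 15 other mitochondrial proteases 2 fell: Lactb by 0.33 (SE 0.06) and Pmpca, a subunit of the processing peptidase that removes import signals, by 0.23 (SE 0.05) on the log2 scale. Of 21 tested genes of protein import 1 rose, Timm10, a small carrier of the intermembrane space (0.46, SE 0.09). Of 24 genes that track mitochondrial mass edgeR called 0, with 5 at an unadjusted p under 0.05 and 0 by DESeq2 or limma-voom (median -0.06).

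Of 27 mitochondrial ribosomal genes 0 rose and 2 fell, Mrps27 (-0.39) and Mrps34 (-0.26), and the list median was -0.01. Of 17 mitochondrial aminoacyl-tRNA synthetases 0 rose and 3 fell, Cars2 (-0.34) and Nars2 (-0.26) among them, and the list median was -0.08. By limma-voom 1 and 2 genes of these lists were called, and by edgeR 5.41% of all genes. Of 15 biogenesis genes 1 rose, Gabpa, a transcription factor of nuclear genes for mitochondrial proteins (0.30, SE 0.06). Of 12 genes of mitochondrial dynamics and mitophagy and 8 of mitochondrial antioxidants edgeR called 0 in each list, with 3 and 2 at an unadjusted p under 0.05, 1 and 2 called by DESeq2, and 0 by limma-voom. Each of these calls is by edgeR at an adjusted p under 0.05 over all genes.

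In the mean over the ages, chaperones of other compartments that passed the test were all lower under asparaginase. Of 14 chaperones of the endoplasmic reticulum 11 fell and 0 rose, with a median of -0.55. By age the median was -0.20 at 2 weeks, where 3 of the 10 members rose, -0.75 at 8 weeks and -0.73 at 16 weeks. At 2 weeks edgeR called 0 of the 14, 1 had an unadjusted p under 0.05, and DESeq2 and limma-voom called 0. The 11 included Hspa5, the counterpart of Hspa9 in that compartment (-0.74, SE 0.16), Hsp90b1 (-0.54, SE 0.08), Pdia3 (-0.57, SE 0.09), Sdf2l1 (-1.13, SE 0.19) and Creld2 (-1.19, SE 0.20). The count was 2 with no sex term, 0 without the 3 mixed libraries and 0 without the squamous libraries, where the medians were -0.44, -0.53 and -0.43. It was 4 without asparaginase replicate 1 of 2 or of 8 weeks or PBS replicate 3 of 16 weeks, and 5 without 16-week asparaginase replicate 3. Of 12 cytosolic heat shock genes 2 fell, Dnaja1 (-0.50, SE 0.09) and Hsp90aa1 (-0.70, SE 0.14). That count was 0 with no sex term, without the mixed or the squamous libraries, and on leaving out replicate 1 of asparaginase at 2 or at 8 weeks or PBS replicate 3 of 16 weeks. It was 1 without 16-week asparaginase replicate 3. For both lists, the fits without the mixed or the squamous libraries also kept the sex term in adults only.

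The stress response list, which holds Atf5 and genes induced by lack of amino acids or by mitochondrial damage, had 17 of 26 genes risen and 0 fallen, with a median of 0.92. Asns and Psat1, of asparagine and serine synthesis, each had a mean log2 fold change of 2.97 (SE 0.14 and 0.19), the mitochondrial folate enzyme Mthfd2 2.01 (SE 0.19) and Pck2, mitochondrial phosphoenolpyruvate carboxykinase, 1.08 (SE 0.08). The count was 11 on leaving out asparaginase replicate 1 of 2 weeks or replicate 3 of 16 weeks, and 12 without the mixed or without the squamous libraries. Asns separated the treatments at all 3 ages, with 28, 27.8 and 13.1 CPM under asparaginase at 16 weeks, against 0.749, 0.555 and 1.51 CPM under PBS.

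**Figure D5:**
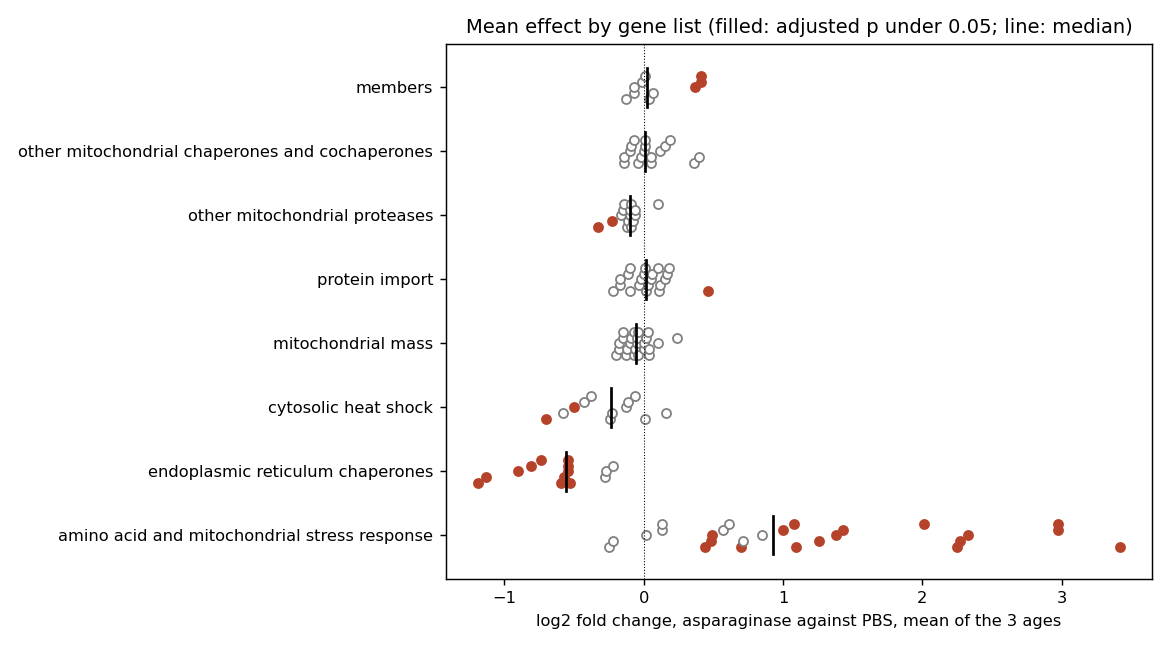
Mean log2 fold change of asparaginase against PBS over the 3 ages for each gene of 8 lists, by edgeR; each point is a gene, filled points have an adjusted p under 0.05, and black lines are list medians. Filled points are 3 of 10 members (all above 0), 11 of 14 endoplasmic reticulum chaperones (all below 0) and 17 of 26 stress response genes (all above 0).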

How the data were processed

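The authors deposited whole-number counts per gene for 18 libraries in 1 table. The submitters' processing notes name TopHat2 2.0.9, TopHat, DESeq2 and the builds GRCm38 and mm10. The sources used here do not name the read counter or its use of strand. Symbols and positions came from GENCODE M21, matching 35533 of 37315 identifiers. Genes were kept by filterByExpr (minimum count 10, total 15), scaled by TMM and fitted with edgeR 4.0.16 (R 4.3.3): 1 term per group and labelled sex within age, 9 residual degrees of freedom, Benjamini-Hochberg over all 16213 genes of a comparison, called under 0.05. Correlations used log2(CPM + 0.5), with SciPy 1.17.1. DESeq2 1.42.0 and limma 3.58.1 were alternatives. The fit was tested on simulated data.

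Each library was taken as 1 mouse, so p-values measure the spread between these samples. The mixed libraries of 2 weeks hold transcripts of both sexes, so the unit of 1 mouse is in doubt for them. Depth limits precision, and intervals of 2 SE cover the fitted spread. Replicate numbers follow deposition order. Members, lists and markers were chosen with earlier results of these data known. By rule the text names all members and Atf5, up to 4 called genes per list and comparison by smallest p, and the 3 genes most like a member. Hspa5, Grpel1, Grpel2, the promoter windows and the ratio to Hspd1 were chosen after values were seen. The result of 1 gene that the rule would name is not reported here.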

Additional observations from a re-analysis of the deposited data

How the results depend on the processing

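By comparison, the number of the 10 members called was as follows where it moved by more than 1.5 times. For asparaginase against PBS at 2 weeks (3 called), it was 0 with no sex term, 0 in a fit of the 6 libraries of that age alone, 1 with the sex term in adults only, and 0 without the 3 mixed or without the 2 squamous libraries, both chosen after seeing the data. Leaving out each library in turn gave 0 to 3: it was 0 without PBS replicate 1 or 2 or asparaginase replicate 1 or 2 of 2 weeks or PBS replicate 1 of 16 weeks, and 1 without asparaginase replicate 2 of 8 weeks or replicate 1 of 16 weeks. For the mean effect (3 called), it was 1 with the sex term in adults only, 0 without the mixed and 0 without the squamous libraries, and 0 to 3 leaving out each library: 1 without PBS replicate 2 of 8 weeks or asparaginase replicate 1 of 16 weeks, and 0 without 3 libraries named in the report. The joint difference between ages (0 called) gave 1 with DESeq2. In PBS mice, 16 against 2 weeks (2 called) gave 1 with no sex term and 1 to 2 leaving out each library. There, 16 against 8 weeks (0 called) gave 2 with DESeq2, 1 without the mixed libraries, and 0 to 1 leaving out each library (Clpx without PBS replicate 1 of 2 weeks, Trap1 without PBS replicate 3 of 8 weeks). The fits without the mixed or the squamous libraries also kept the sex term in adults only. The cause of these moves was not tested. Other scaling (RLE, Mup genes left out), limma-voom and no filter kept every such count within 1.5 times, and the counts at 8 and 16 weeks and for Atf5 were 0 in every setting run. On plain library totals the centred r of Hspa9 with Atf5 was 0.70, against 0.39 on TMM-scaled values. No called member changed direction in any setting that was fitted, and no fit used plain library totals. No paired analysis was possible because the labels give no replicate number that groups share. With 3 libraries a group and TMM factors from 0.63 to 1.405, changes as small as those of Hspd1 are not resolved.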
